A study of Sminthopsis crassicaudata with 9 samples.

Results

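H3K27ac around each gene was set against the RNA level of that gene in the face of newborn fat-tailed dunnarts (Sminthopsis crassicaudata). Of the 9 samples of the series, 5 enter this comparison, namely 2 H3K27ac ChIP-seq replicates and 3 RNA-seq libraries, and 21692 of the 21703 annotated genes have usable counts. Each ChIP replicate was made from pooled craniofacial tissue of young on the day of birth, under 24 hours old, with 26 heads in pool 1 and 27 heads in pool 2 according to the sample labels. Per the study's methods, tongue, neural tube and eyes were taken out beforehand. Each RNA library was made from the facial prominences of 2 pouch young of the same day. All samples are untreated and of 1 tissue and 1 age, so there is no contrast between groups. The ChIP pools and the RNA pools are different young, and the libraries FP1, FP2 and FP3 cannot be matched to a ChIP replicate. The labels do not say whether the RNA pools came from separate litters, so the spread between libraries may be partly technical.

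H3K27ac is acetylation of lysine 27 on histone H3. It is deposited by the acetyltransferases p300 and CBP and is found both at promoters of transcribed genes and at active enhancers, which can lie far from the gene they act on. In whole tissue a mark at a promoter and the mRNA of the gene are both averages over all cell types, and an enhancer is not tied to its gene by position alone.

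The signal of a gene is the fold enrichment of each H3K27ac peak over input multiplied by the peak's length in kb, summed over the peaks in a distance band and given here in fold-kb. The bands run from the transcription start site (TSS), taken as the outermost exon end on the gene's strand, to the nearest edge of the peak: within 1 kb, from 1 to 10 kb, and from 10 to 100 kb. A peak that reaches into a band of several genes was counted for each of them. RNA level is given as TPM, in which the count of a gene is divided by its exon length and scaled to the same total in every library, and a gene is called expressed when it exceeded 1 TPM in all 3 libraries. This held for 12250 genes, 56.5% of all.

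The RNA libraries held between 16096971 and 17419099 counts and had rank correlations of 0.977 to 0.979 with each other. At a q-value under 0.05 there were 197508 and 198269 H3K27ac peaks in replicates 1 and 2, and the files do not give the read depth of the ChIP libraries. The tissue label was checked against markers. All 6 facial mesenchyme markers, 5 of 5 of surface epithelium and 5 of 5 of skeletal muscle were expressed. So were 3 of 4 of cartilage, 3 of 3 of endothelium and 3 of 3 of red cells. None of the 4 liver, 3 retina and 1 pancreas markers exceeded 1 TPM in all libraries. Of these, APOA1 of liver was at 0.753, 1.53 and 4.48 TPM in FP1, FP2 and FP3. Of 4 heart muscle markers 2 were expressed, led by NKX2-5 at 70.3, 73.9 and 163 TPM in FP1, FP2 and FP3.

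H3K27ac lay in few, strong and long peaks at the TSS and in weaker, shorter but plentiful peaks farther out. In replicate 1, 16045 genes (74.0%) had a peak within 1 kb, 15025 (69.3%) had one at 1 to 10 kb and 21555 (99.4%) had one at 10 to 100 kb, and in replicate 2 the shares were 74.0%, 69.5% and 99.1%. A gene with signal had a median of 1 peak within 1 kb, 2 peaks at 1 to 10 kb and 16 peaks at 10 to 100 kb. Peaks within 1 kb had a median fold enrichment of 20.9 and 18.3 in the 2 replicates and a median length of 2109 and 2092 bp. At 1 to 10 kb the medians were 4.62- and 4.74-fold and 701 and 700 bp. Peaks at 10 to 100 kb had the same median enrichments and median lengths of 697 and 696 bp.

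The replicates ranked genes alike. The rank correlation between replicates was 0.968 within 1 kb, 0.919 at 1 to 10 kb and 0.992 at 10 to 100 kb across the 21692 genes. The median log2 ratio of replicate 2 to replicate 1 was -0.20 within 1 kb, -0.04 at 1 to 10 kb and -0.12 at 10 to 100 kb, over genes with signal in both, so replicate 1 was slightly stronger. Presence was least repeatable in the middle band, where 2718 genes had a peak in 1 replicate only, against 976 within 1 kb and 218 at 10 to 100 kb.

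RNA level followed the signal at the TSS most closely. With both replicates and all libraries averaged, Spearman's rho between H3K27ac and TPM across 21692 genes was 0.658 within 1 kb, 0.230 at 1 to 10 kb and 0.323 at 10 to 100 kb. The genes behind each rho share the same libraries, and neighbours share peaks, so genes are not independent replicates and no p is given. Over the 6 pairs of a ChIP replicate with an RNA library, rho within 1 kb ran from 0.643 to 0.660 (SD 0.0060), at 1 to 10 kb from 0.202 to 0.239 (SD 0.016) and at 10 to 100 kb from 0.301 to 0.337 (SD 0.016). The order of the bands was the same in 6 of 6 pairs, and the ranges do not overlap. The pairs reuse the same replicates and libraries, so they are not independent of each other. The bands differ in width, and their order was not examined at equal width. Pearson's r with log2(TPM + 1) gave the same order, at 0.614, 0.230 and 0.306.

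Library FP1 gave the highest values in every band with either ChIP replicate. Within 1 kb its rho was 0.660 and 0.654, compared with 0.651 and 0.644 for FP2 and 0.650 and 0.643 for FP3. At 10 to 100 kb its rho was 0.335 and 0.337, compared with 0.301 and 0.303 for FP2 and 0.307 and 0.309 for FP3. The choice of RNA library therefore moved the distal values more than the choice of ChIP replicate did.

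**Figure D1:**
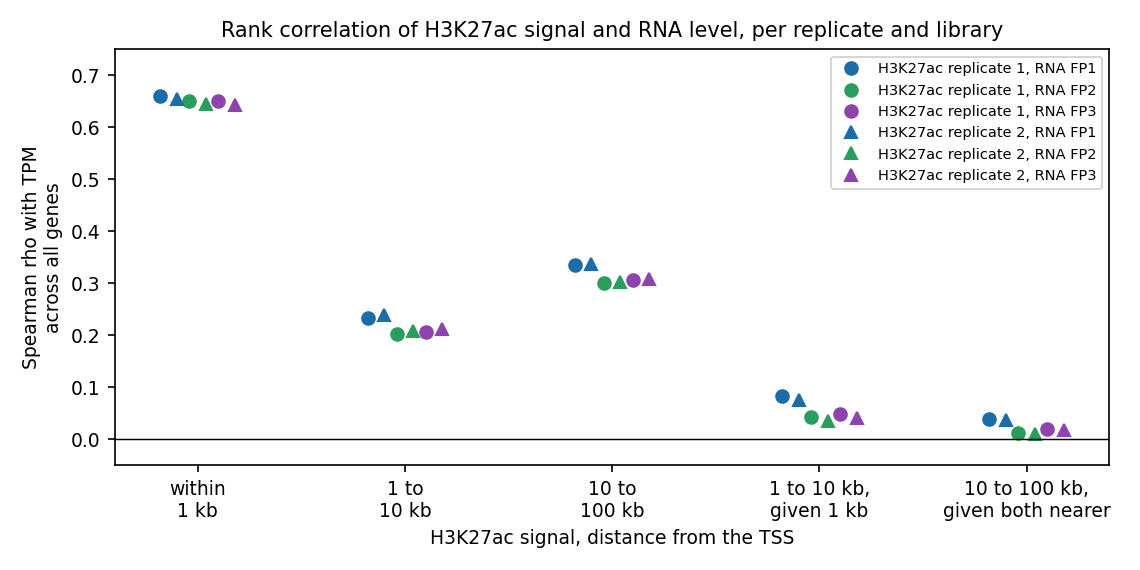
Spearman's rho between H3K27ac signal and TPM (vertical axis) for each distance band and for the outer bands after the nearer ones are held constant (horizontal axis); every point is 1 ChIP replicate (circle or triangle) with 1 RNA library (colour), and there are no error bars. Points within 1 kb lie between 0.643 and 0.660, those at 10 to 100 kb between 0.301 and 0.337, and those given the nearer bands between 0.0112 and 0.0832.

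The relations were weaker among expressed genes alone. Among these 12250 genes, rho was 0.383 within 1 kb, 0.156 at 1 to 10 kb and 0.235 at 10 to 100 kb. Among genes that had any peak in the band, it was 0.594 (16537 genes), 0.230 (16405 genes) and 0.320 (21640 genes). The order of the bands held in both restrictions.

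The share of expressed genes differed most between the lowest and the 2nd quartile of signal at the TSS. The 5155 genes with no peak within 1 kb in either replicate had a median of 0 TPM in all 3 libraries, and 19.8% of them were expressed. Genes in the lowest quartile of signal, up to 13.2 fold-kb, were close to these, with median TPM of 0.123, 0.141 and 0.0822 in FP1, FP2 and FP3 and 27.1% expressed. In the next quartile, up to 53.9 fold-kb, the medians were 4.55, 5.65 and 3.84 TPM and 65.9% were expressed. The 3rd quartile, up to 113 fold-kb, had medians of 16.01, 20.7 and 15.5 TPM with 88.6% expressed. The top quartile, which reached 2778 fold-kb, had medians of 33.2, 38.5 and 31.0 TPM with 90.01% expressed. The libraries do not overlap between successive quartiles. A weak peak at a TSS thus went with little RNA, and from the 3rd to the top quartile the share expressed hardly differed while the median level did.

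The outer bands showed shallower gradients. At 1 to 10 kb, mean TPM had a median of 1.22 with no peak and of 1.66, 2.73, 5.18 and 14.9 in the 4 quartiles, and the share expressed ran from 48.2% with no peak to 72.8% in the top quartile. At 10 to 100 kb only 52 genes lacked a peak, of which 11.5% were expressed, and the quartiles had medians of 0.255, 2.86, 6.08 and 15.3 TPM with 39.5%, 54.0%, 61.5% and 71.4% expressed. The top quartile of either outer band had a median below that of the 3rd quartile within 1 kb, which was 17.8 TPM.

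**Figure D2:**
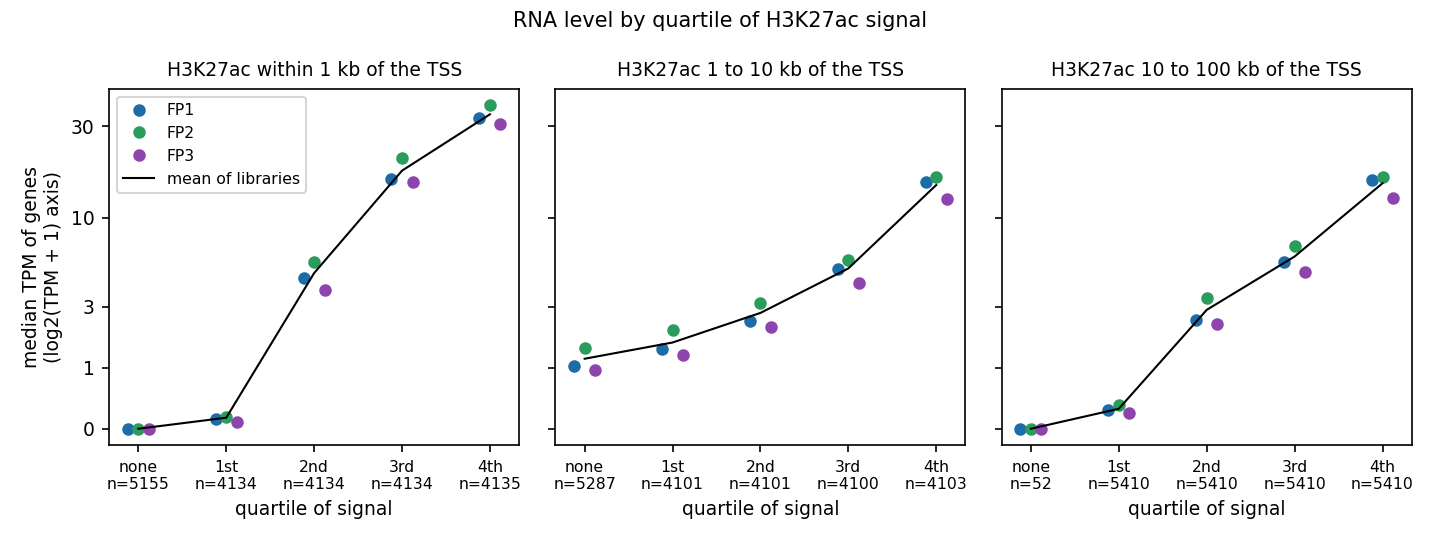
Median TPM of genes on a log2(TPM + 1) axis against the quartile of H3K27ac signal, for signal within 1 kb, at 1 to 10 kb and at 10 to 100 kb of the TSS; points are the 3 RNA libraries, the line follows the mean of the libraries, and n is the number of genes. Medians within 1 kb run from 0 with no peak to 31.0 to 38.5 TPM in the top quartile, and the top quartiles of the outer bands reach 14.9 and 15.3 TPM in the mean.

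A finer look at distance set 3063 highly expressed genes (from 50.99 TPM, the top quartile of expressed genes) against 3063 weakly expressed ones (up to 7.80 TPM) and 9442 genes that were not expressed. Genes of the last set did not exceed 1 TPM in every library, but their mean TPM reached up to 14.98. A peak in both replicates lay over the TSS itself in 91.7% of the first, 74.7% of the second and 34.0% of the last, and in 62.6% of all genes. The rank correlation between TPM and the signal of peaks over the TSS was 0.655, close to that of the whole 1 kb band. The share of genes with a separate peak that ended short of the TSS had the opposite order. A separate peak within 1 kb downstream was present in 1.60%, 5.42% and 7.76% of the 3 sets (rho -0.17), and one within 1 kb upstream in 2.12%, 4.05% and 4.54% (rho -0.066). By construction, a peak that reaches over the TSS is not counted again in the adjoining windows. Mean signal in the upstream 1 kb window was not inverted, at 1.50, 1.35 and 1.14 fold-kb in the 3 sets.

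From 1 to 2 kb the sets hardly differed, at 6.82%, 6.40% and 5.74% upstream and 5.16%, 5.91% and 6.16% downstream. Beyond 2 kb the order was that over the TSS, and both sides were alike. From 2 to 5 kb upstream 27.4% of highly expressed, 21.8% of weakly expressed and 17.8% of unexpressed genes had a peak, and downstream the shares were 27.8%, 23.1% and 19.9%. From 50 to 100 kb the shares were 92.7%, 85.3% and 78.8% upstream and 93.6%, 84.4% and 79.4% downstream. Windows widen with distance, so shares can be compared between sets of genes within a window and not between windows. The rank correlation was 0.110 upstream and 0.108 downstream at 2 to 5 kb, and 0.256 and 0.260 at 50 to 100 kb. These values cannot be compared between windows either. At 2 to 5 kb 20.8% and 22.5% of all genes had a peak in both replicates, against 84.1% and 84.4% at 50 to 100 kb.

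**Figure D3:**
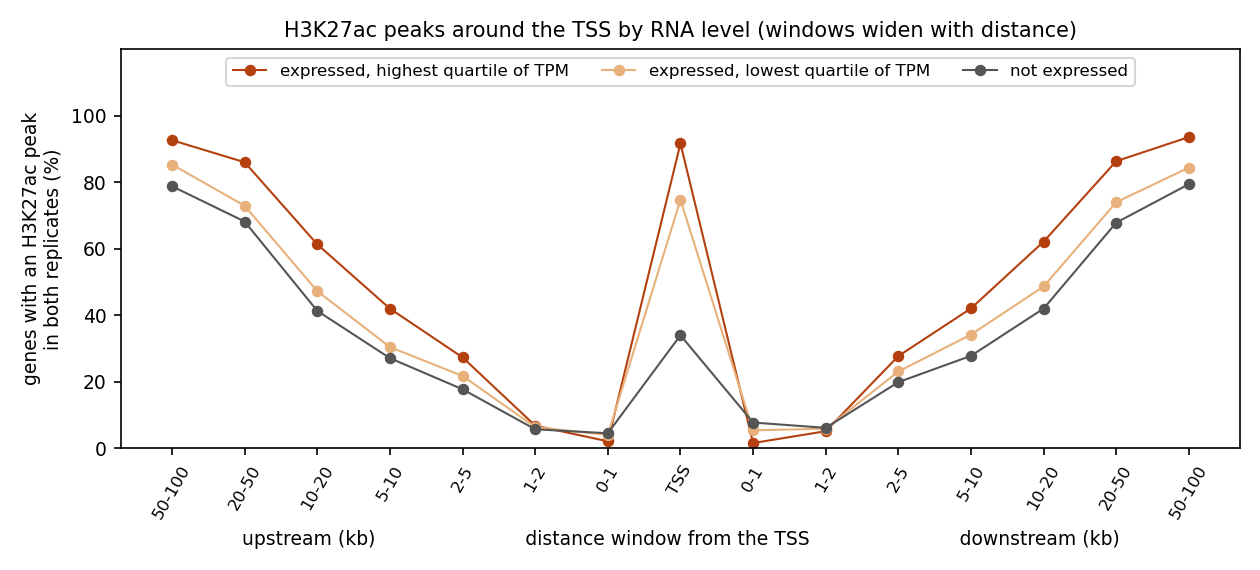
Percent of genes with an H3K27ac peak in both replicates (vertical axis) in distance windows upstream of, over and downstream of the TSS (horizontal axis, kb), for expressed genes in the highest and lowest quartile of TPM and for genes not expressed; each point is 1 set in 1 window, without error bars. Over the TSS the sets stand at 91.7%, 74.7% and 34.0%, the order is inverted in the adjoining 1 kb, and the sets run parallel on either side farther out.

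Signals at different distances were related to each other, so the outer bands were also examined among genes of like signal at the TSS. The rank correlation between bands was 0.297 for within 1 kb with 1 to 10 kb, 0.440 for within 1 kb with 10 to 100 kb, and 0.642 for both outer bands. With the signal within 1 kb held constant by partial rank correlation, rho of the 1 to 10 kb band with TPM was 0.0477 (0.0348 to 0.0832 over the 6 pairs). With both nearer bands held constant, rho of the 10 to 100 kb band was 0.0257 (0.0112 to 0.0391). Both values were positive in 6 of 6 pairs but depend on how signal is defined: they were -0.0435 and -0.0022 when peak length alone was summed, and 0.163 and 0.112 with the largest fold enrichment in the band. By contrast, the 1 kb signal kept a rho of 0.607 with both outer bands held constant.

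The outer bands tracked RNA level best where the TSS itself lacked a peak. Among the 5155 genes with no peak within 1 kb, rho was 0.222 at 1 to 10 kb and 0.260 at 10 to 100 kb. These genes mix 1626 with a symbol, of which 42.8% were expressed, and 3529 with a LOC identifier, of which 9.15% were. The relation was not examined within either class. In the lowest quartile of 1 kb signal, rho was 0.146 and 0.102. In the 2nd quartile it was -0.074 and -0.050, in the 3rd 0.020 and 0.059, and in the top quartile 0.092 and 0.141, and every one of the 6 pairs was negative in the 2nd quartile and positive in the top one. Values of the 3rd quartile ran from -0.014 to 0.062 over the pairs at 1 to 10 kb, on both sides of 0.

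Shares of expressed genes differed in the same direction where the TSS lacked a peak. Without a peak within 1 kb, 14.5% of 2062 genes were expressed when 1 to 10 kb was empty too, against 26.7% of 2263 genes with a peak there in both replicates. Where the 10 to 100 kb signal was at or above the median of all genes, 32.8% of 1172 such genes were expressed, against 15.9% of 3983 below it. With a peak within 1 kb in both replicates, 74.1% of 2990 genes without and 70.0% of 10824 genes with a peak at 1 to 10 kb were expressed, at median TPM of 9.90 and 10.8. At 10 to 100 kb the direction was the other one, with 72.3% of 9300 such genes expressed at or above the median signal and 68.7% of 6261 below it, at median TPM of 13.4 and 7.54.

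Much of the distal signal lay at the TSS of neighbouring genes. Peaks within 1 kb of the TSS of another gene made up 11.1% and 11.2% of gene and peak pairs at 1 to 10 kb in the 2 replicates but 57.1% and 54.2% of the signal. At 10 to 100 kb they were 12.9% of pairs in both replicates and 60.4% and 57.3% of the signal. Even within 1 kb, 43.1% and 42.2% of the signal lay in peaks that also reached within 1 kb of another TSS. With such peaks left out, rho with TPM was 0.474 within 1 kb, 0.215 at 1 to 10 kb and 0.291 at 10 to 100 kb. When every peak was given to its nearest TSS alone, rho at 10 to 100 kb was 0.110, under the 0.171 at 1 to 10 kb, which reversed the order of the outer bands.

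Gene density moved with the distal signal and little with RNA. The number of other TSS within 100 kb (median 3) had a rho of 0.546 with the 10 to 100 kb signal, 0.126 with the 1 kb signal and 0.0457 with TPM. With that number held constant, rho of the 10 to 100 kb signal with TPM was 0.356. In the 3596 genes with no other TSS within 100 kb, rho was 0.692 within 1 kb, 0.0944 at 1 to 10 kb and 0.198 at 10 to 100 kb. The part of gene density in the distal relation was not tested beyond these values.

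At the TSS, RNA level was more closely related to enrichment than to width or number of peaks. Within 1 kb, rho with TPM was 0.663 and 0.660 in the 2 replicates for the largest fold enrichment, 0.561 and 0.562 for summed length, and 0.412 and 0.410 for the number of peaks. Among genes that had a peak there, the number of peaks had a rho of -0.119 and -0.105 and the summed signal 0.579 and 0.571. Genes with several separate peaks near the TSS therefore ranked somewhat lower in RNA than genes with 1.

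The largest mean signals within 1 kb among genes with a symbol belonged to 5 neighbours under 1 wide peak. It spanned 5440467 to 5482088 of scaffold00098 of the study's dunnart assembly in replicate 1 and 5446820 to 5481964 in replicate 2, at 74.5- and 69.8-fold enrichment, and covered 7 TSS in replicate 1 and 5 in replicate 2. Each of the 5 named genes received 3100 and 2455 fold-kb. MED29, a Mediator subunit, was at 89.9, 65.1 and 64.9 TPM in FP1, FP2 and FP3. PAF1, a subunit of the complex that accompanies elongating RNA polymerase II, was at 78.8, 78.2 and 80.6 TPM. PLEKHG2, a guanine nucleotide exchange factor, was at 52.1, 39.9 and 32.7 TPM, and ZFP36, an RNA-binding protein that promotes decay of AU-rich mRNAs, at 124, 98.3 and 117 TPM. The isoleucine tRNA gene TRNAI-UAU-2 had 0 counts in every library, which were prepared with an mRNA kit. The tRNA gene aside, 1 peak thus stood beside RNA levels from 32.7 to 124 TPM.

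Wide peaks of this kind were few but heavy. Peaks over 10 kb long numbered 968 and 995 in the 2 replicates, 0.490% and 0.502% of peaks, and held 15.1% and 14.9% of all signal. Within 1 kb of them lay 825 and 875 genes, of which 83.2% and 83.8% were expressed. Leaving them out gave a rho of 0.591 within 1 kb and 0.219 and 0.320 in the outer bands.

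At 1 to 10 kb the largest signals were those of CIC, KAT5, NOSIP, TEX44 and KIAA0895. CIC, a transcriptional repressor under receptor tyrosine kinase control, had 3380 and 2925 fold-kb there but only 55.7 and 63.4 within 1 kb, at 176, 154 and 134 TPM. Most of this was 1 peak of 33.8 kb in replicate 1 that also lay over the TSS of ERF and over 4 others. TEX44, a testis-expressed gene, had 3215 and 1645 fold-kb at 1 to 10 kb from a peak that covered no TSS, and its RNA was at 0.931, 1.04 and 0.0864 TPM. At 10 to 100 kb the leaders were OVOL1, EHBP1L1, DHDH, NUCB1 and TULP2, each in a region with 12 to 32 other TSS within 100 kb. OVOL1, a zinc-finger factor of epidermal differentiation, had 7922 and 5704 fold-kb there and was at 33.6, 84.4 and 63.5 TPM. DHDH, NUCB1 and TULP2 shared 6727 and 6037 fold-kb, and their mean TPM was 27.1, 233 and 3.26. The same distal signal thus stood beside RNA levels that differed widely.

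Gene lists with a known role in the face, in housekeeping or in other tissues showed where H3K27ac and RNA ran together and where they parted. Background for these counts is as follows. Of all genes 71.7% had a peak within 1 kb in both replicates, 63.1% at 1 to 10 kb and 98.8% at 10 to 100 kb, and the strongest quartile of signal is 25.0% of all genes in each band. Listed genes have symbols, and of the 14158 genes with a symbol 86.0% had a peak within 1 kb in both replicates, 65.8% at 1 to 10 kb and 99.3% at 10 to 100 kb, 33.0% were in the strongest quartile within 1 kb, 28.1% at 1 to 10 kb and 28.8% at 10 to 100 kb, and 75.3% were expressed. Their median signal within 1 kb was 54.2 fold-kb, and their median TPM was 12.8.

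Housekeeping lists were high in both. Of 65 cytosolic ribosomal protein genes 65 were expressed, with median TPM of 2484, 1729 and 2086 in FP1, FP2 and FP3, and 39 were in the strongest quartile within 1 kb, at a median of 108 fold-kb. Among 32 translation factors 31 were expressed and 23 in the strongest quartile, and EEF1A1, which delivers aminoacyl-tRNA to the ribosome, had 229 and 164 fold-kb at 2254, 2843 and 2601 TPM. The 28 proteasome genes had 27 expressed and 12 in the strongest quartile, and the 39 nuclear genes of oxidative phosphorylation 39 and 17. Reads of ribosomal protein genes can be split with near-identical copies. Their mean TPM is therefore uncertain, as for RPL19, whose model holds only 218 bp of exon.

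Regulators of chromatin and rapidly induced genes had the strongest H3K27ac at moderate RNA. The 23 chromatin modifiers had a median of 171 fold-kb within 1 kb with 20 in the strongest quartile, at a median of 43.7 TPM. HDAC2, a histone deacetylase, had 164 and 158 fold-kb at 155, 192 and 161 TPM, and CHD4, the remodelling ATPase of the NuRD complex, had 213 and 198 at 145, 166 and 142 TPM. Their signal at 1 to 10 kb was low, with a median of 2.03 fold-kb. The 20 immediate early genes, which respond to stimuli within minutes, had a median of 217 fold-kb with 18 in the strongest quartile, at a median of 42.6 TPM. JUND had 787 and 584 fold-kb at 244, 268 and 292 TPM, and JUN, its partner in the AP-1 family, 552 and 451 at 129, 145 and 159 TPM. KLF4, a zinc-finger factor of epidermal barrier formation, had 210 and 228 fold-kb at 91.1, 196 and 167 TPM. At 1 to 10 kb, 11 of 20 immediate early genes were in the strongest quartile, and their median was 15.7 fold-kb in replicate 1 and 60.9 in replicate 2, against 1.39 and 2.91 for the chromatin modifiers. The size of the former thus differed much between replicates, and both values exceed those of the latter list.

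Factors of the facial mesenchyme had strong signal at the TSS and around it. Of 29 neural crest and facial mesenchyme factors 28 were expressed at a median of 30.05 TPM, 12 were in the strongest quartile within 1 kb and 15 at 1 to 10 kb, where their median was 30.1 fold-kb against 3.68 over all genes. TWIST1, a basic helix-loop-helix factor of cranial mesenchyme, had 456 and 361 fold-kb within 1 kb and 224 and 175 at 1 to 10 kb, at 359, 285 and 217 TPM. MSX1, a homeobox factor of the facial prominences and tooth buds, had more at 1 to 10 kb (275 and 176 fold-kb) than within 1 kb (110 and 102) at 108, 83.9 and 109 TPM. SNAI2, a repressor of epithelial genes in migrating neural crest, had 26.7 and 26.4 fold-kb within 1 kb and no peak at 1 to 10 kb, at 73.1, 87.7 and 82.9 TPM. High RNA was thus reached with very different distal signal.

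All 22 genes of craniofacial signalling were expressed, at a median of 17.2 TPM, and 11 were in the strongest quartile within 1 kb but 1 at 10 to 100 kb. The list had a median of 0 other TSS within 100 kb, against 2 for genes with a symbol. Whether this goes with the low count at 10 to 100 kb was not tested. CTNNB1, the transcriptional effector of canonical Wnt signalling, had 283 and 167 fold-kb within 1 kb and none at 1 to 10 kb, at 505, 643 and 529 TPM. WNT5A, a ligand of non-canonical Wnt signalling that drives outgrowth of the face, had 355 and 669 fold-kb at 58.5, 114 and 100 TPM, and FGFR1, a receptor for fibroblast growth factors, 319 and 227 at 85.8, 103 and 61.7 TPM. The replicates of WNT5A differed at 1 to 10 kb, where replicate 1 had 97.1 and replicate 2 had 4.91 fold-kb.

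Skeletal muscle combined very high RNA with modest H3K27ac at the TSS, and of the 23 lists only the ribosomal proteins had a higher median TPM. The 19 genes of muscle contraction had a median of 1339 TPM (1292, 1224 and 1502 in the 3 libraries) but a median of 21.2 fold-kb within 1 kb, near the 26.0 of all genes, and 13 of 19 had a peak there in both replicates. By replicate the median was 31.3 fold-kb against 26.0 over all genes in replicate 1 and 20.7 against 23.9 in replicate 2. The list thus lay above all genes in one and below them in the other. Compared with genes with a symbol, at 54.2 fold-kb in the mean and 57.0 and 48.5 by replicate, it was lower in both. Since the libraries are of whole tissue, fewer cells of a type and less RNA per cell cannot be told apart, and the same holds for the mark. Signal farther out was higher, with 10 of 19 in the strongest quartile at 1 to 10 kb and 10 of 19 at 10 to 100 kb.

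MYL1, a light chain of fast skeletal myosin, was at 7118, 6771 and 8033 TPM with no peak within 10 kb in either replicate and none over the gene, and the nearest peak lay 31.6 and 31.7 kb away. TNNT3 and TNNC2, troponin T and C of fast muscle, were at 6360, 4936 and 6928 and at 5857, 4612 and 7741 TPM. TNNT3 had 137 and 147 fold-kb within 1 kb, 197 and 300 at 1 to 10 kb and 3872 and 3413 at 10 to 100 kb, whereas TNNC2 had 31.3 and 11.1 within 1 kb. MYLPF, the regulatory light chain of fast myosin, had 359 and 161 fold-kb at 5076, 4612 and 6244 TPM. Contractile genes of like RNA level therefore ranged from no peak at the TSS to the 359 and 161 fold-kb of MYLPF. The MYLPF peak covered 2 TSS in both replicates. TTN, which encodes the sarcomere spring titin, had 0 counts in all libraries in a model with only 1021 bp of exon.

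The 13 regulators of myogenesis were lower in RNA (median 12.6 TPM) and had a median of 20.01 fold-kb at the TSS (17.2 and 12.4 in the replicates taken alone). MYOD1, the helix-loop-helix factor that sets muscle identity, had 29.0 and 31.7 fold-kb within 1 kb at 226, 244 and 313 TPM, and MYF6, its relative in differentiating fibres, 12.004 and 10.3 at 59.7, 78.9 and 118 TPM. Just 3 of 13 were in the strongest quartile within 1 kb and 5 at 1 to 10 kb.

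Skin genes also combined high RNA with modest signal at the TSS, with large differences between members. All 19 genes of epidermis and periderm had a peak within 1 kb in both replicates, with a median of 289 TPM (112, 294 and 317 in FP1, FP2 and FP3) at 41.3 fold-kb, and 3 were in the strongest quartile. KRT17, a keratin of periderm and skin appendages, had 121 and 45.8 fold-kb at 8859, 5957 and 8473 TPM, while KRT14, a keratin of basal keratinocytes, had 8.77 and 7.71 at 4372, 2965 and 5840 TPM. SFN, a 14-3-3 protein of stratified epithelium, had 168 and 287 fold-kb at 2206, 1647 and 2823 TPM. KRT14 thus had far less signal than the median of the chromatin modifiers, and far more RNA.

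In the list of osteoblasts and bone matrix, 7 of 12 genes had a peak within 1 kb in both replicates, and 5 were in the strongest quartile. These include SPARC, a collagen-binding matrix protein, with 1033 and 847 fold-kb at 2773, 3115 and 2509 TPM, and COL1A2, a chain of type I collagen, with 404 and 572 at 1653, 2425 and 1156 TPM. The list's median TPM differed between libraries, at 70.6, 170 and 20.6. Of 15 cartilage genes 12 were expressed at a median of 6.98 TPM, and COL2A1, the main cartilage collagen, was uneven in both measures, with 37.4 and 77.3 fold-kb at 36.4, 90.9 and 27.6 TPM. RNA of cartilage genes was highest in FP2 for each of COL2A1, COL9A2 and COL11A1.

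**Figure D4:**
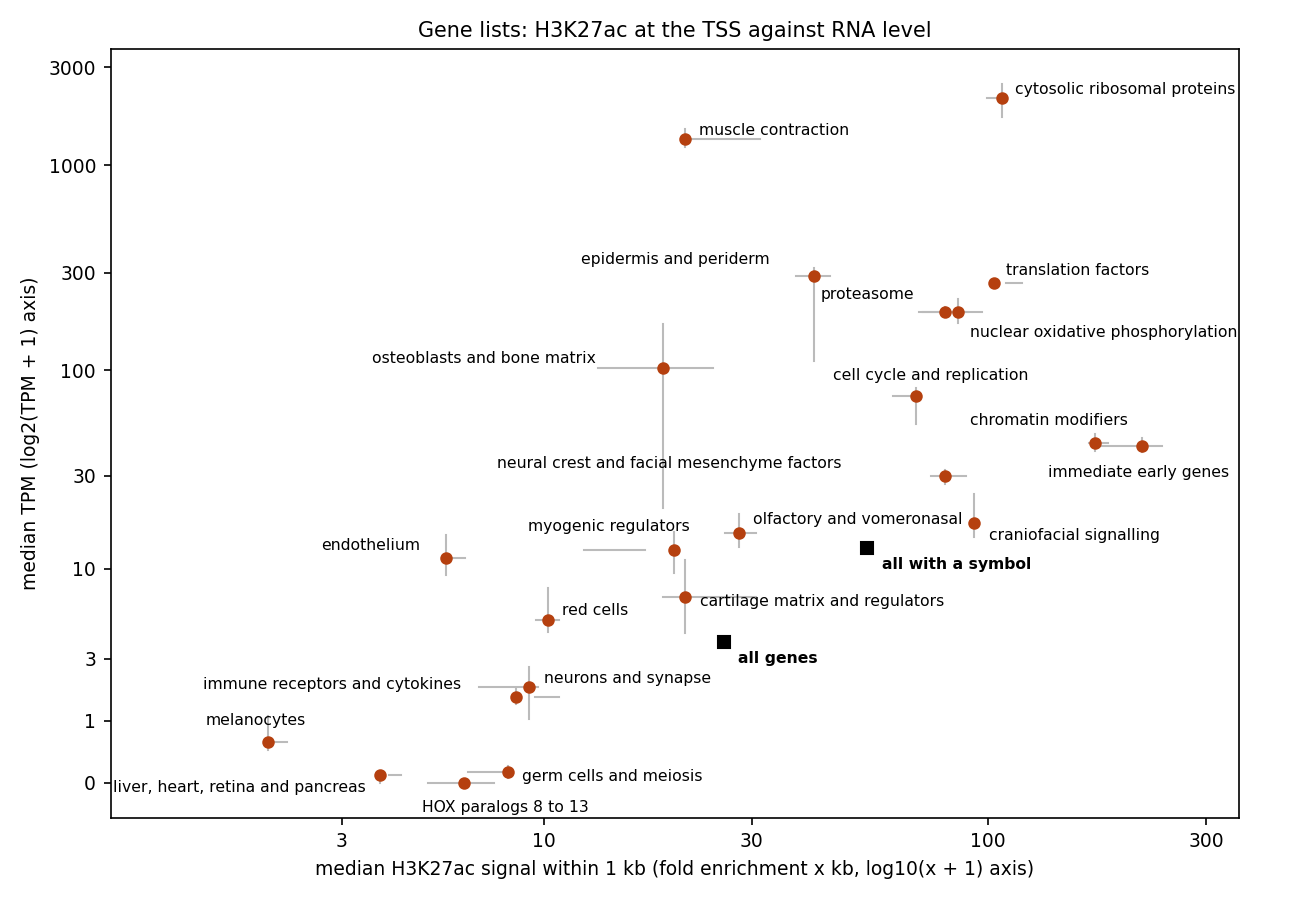
Median TPM (vertical axis, log2(TPM + 1)) against median H3K27ac signal within 1 kb of the TSS (horizontal axis, fold enrichment times kb, log10(x + 1)) for 23 gene lists (red) and for all genes and genes with a symbol (black); points are medians of the means over replicates and libraries, horizontal bars join the medians of each ChIP replicate alone, and vertical bars those of the 3 RNA libraries. Muscle contraction stands at 1339 TPM and 21.2 fold-kb, immediate early genes at 42.6 TPM and 217 fold-kb, and lists of tissues outside the face lie at the lower left.

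Lists of other cell types in or near the face were mostly at the low end. The 12 endothelial genes were all expressed (median 11.4 TPM) at a median of 5.74 fold-kb within 1 kb, although SOX18, a factor of vessel and lymphatic endothelium, had 135 and 75.6 fold-kb at 52.8, 36.9 and 38.3 TPM, and TIE1, an endothelial receptor kinase, 170 and 129 at 42.8, 26.6 and 26.6 TPM. Of 23 genes of neurons and synapse 12 were expressed and 0 were in the strongest quartile within 1 kb. TUBB3, the neuronal tubulin, had 31.0 and 19.6 fold-kb at 36.7, 45.4 and 52.4 TPM. Of 12 olfactory genes 11 were expressed, and OMP, which marks mature olfactory neurons, had 2.64 and 3.10 fold-kb at 91.7, 159 and 122 TPM. Red cell genes had little signal within 1 kb (median 10.2 fold-kb) but the highest median of the 23 lists at 1 to 10 kb in both replicates (59.2 and 68.0). At 10 to 100 kb their medians were 697 and 705 fold-kb, against 709 and 565 for muscle contraction. Among 9 melanocyte genes 3 were expressed, and among 17 immune genes 8.

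Lists for which the face should have little RNA had weak peaks at the TSS, and their shares with a peak stand beside 86.0% in all genes with a symbol. Of the 16 measured HOX genes of groups 8 to 13, known for patterning trunk, tail and limbs, 15 had a peak within 1 kb in both replicates, but the median was 6.36 fold-kb, 0 were in the strongest quartile and 1 was expressed. That gene was HOXD8, at 17.6 and 14.9 fold-kb and 5.60, 3.35 and 4.77 TPM. Of 16 germ cell genes 13 had a peak in both replicates and 0 were expressed, and of 19 genes of liver, heart, retina and pancreas 14 had one and 2 were expressed. The latter had a median of 480 fold-kb at 10 to 100 kb, above the 188 of all genes with a symbol, and 10 of 19 were in the strongest quartile there. These genes had a median of 4 other TSS within 100 kb, against 2 for genes with a symbol. How much of their distal signal lay at those TSS was not examined. A peak at the TSS and strong distal signal were thus both found at genes with little or no RNA. NKX2-5, a homeobox factor of heart and of pharyngeal mesoderm, had 4.05 and 5.65 fold-kb within 1 kb for the RNA level given above.

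Each gene was next placed among genes of the same 1 kb signal (no peak, or the same quartile). In all genes 25.0% lie above the upper quartile of TPM of their own class, and in genes with a symbol 31.7%. All 65 ribosomal protein genes lay above it, as did 38 of 39 genes of oxidative phosphorylation, 27 of 28 of the proteasome, 30 of 32 translation factors, 18 of 19 of muscle contraction and 15 of 19 of epidermis and periderm. By comparison, 7 of 23 chromatin modifiers, 8 of 20 immediate early genes, 12 of 29 mesenchyme factors and 11 of 22 signalling genes did. None of the 16 HOX genes and none of the 16 germ cell genes did. Above the upper quartile of their class were also 16 of 24 cell cycle genes, 8 of 12 endothelial, 7 of 12 bone and 7 of 15 cartilage genes. Most members of the housekeeping, muscle contraction and epidermis lists were thus high in RNA for their signal, but this was not particular to them. Chromatin modifiers were near the share of all genes with a symbol. Lists and their members had been chosen with earlier results on these samples known, so the counts describe the lists and carry no test.

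**Figure D5:**
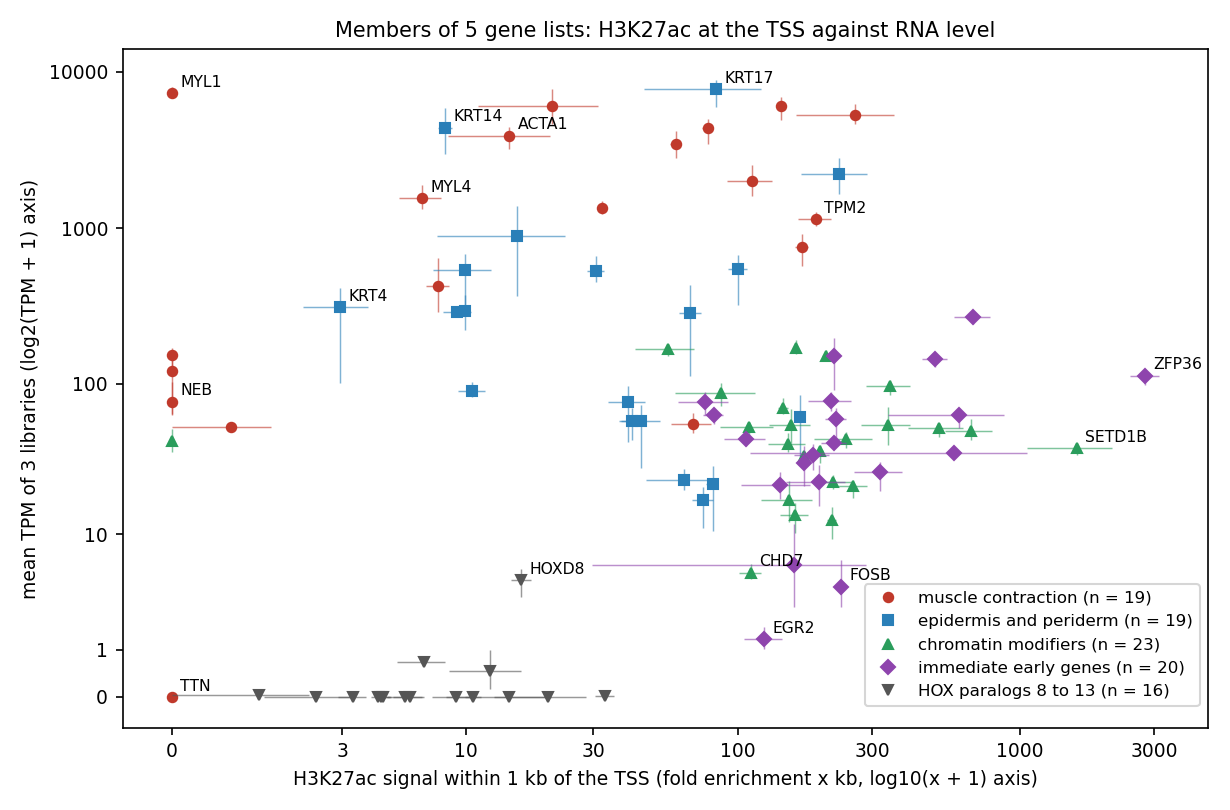
Mean TPM (vertical axis, log2(TPM + 1)) against mean H3K27ac signal within 1 kb of the TSS (horizontal axis, fold enrichment times kb, log10(x + 1)) for members of 5 gene lists; each symbol is 1 gene, horizontal bars span the 2 ChIP replicates and vertical bars the 3 RNA libraries. MYL1 at 7307 TPM has no peak within 1 kb, SETD1B and ZFP36 lie farthest to the right at moderate TPM, and HOX genes other than HOXD8 lie under 1 TPM.

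The genes of highest RNA ranged from no peak within 1 kb to the strongest quartile of signal there. FTH1, the heavy chain of the iron store ferritin, led with 30866, 23226 and 24925 TPM and had 596 and 491 fold-kb within 1 kb. HBZ, an embryonic globin, was at 5260, 7096 and 9401 TPM with 6.26 and 6.07 fold-kb, under the upper edge of the lowest quartile. The 8 genes of highest RNA also include KRT17, MYL1, TNNT3, TNNC2, RPL19 and MYLPF. FTH1, TNNT3 and MYLPF had mean signals of 544, 142 and 260 fold-kb within 1 kb, above the 89.9 fold-kb at which the strongest quartile begins. MYL1 and RPL19 had no peak there. None of the 8 was among the 5 of largest signal in any band, but sets of 5 are too small for this to be informative.

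Expression without a peak at the TSS was seen in 1019 genes, of which 696 have a symbol. Their median was 10.8 TPM, and the nearest peak lay at a median of 5.23 kb. A peak lay between the ends of the gene in both replicates for 612 of them (60.1%), and for 520 of the 696 with a symbol (74.7%). For comparison, 1626 genes with a symbol lacked a peak within 1 kb, expressed or not. Of these 951 (58.5%) had a peak between the gene's ends, and the nearest peak lay at a median of 6.56 kb. Of the 3529 such genes with a LOC identifier 826 (23.4%) had one, and the median was 7.95 kb. Of genes with a symbol, 222 were expressed with no peak within 10 kb, at a median of 9.48 TPM and 19.2 kb from the nearest peak. Gene models were carried over from the Tasmanian devil, and whether the modelled TSS is the one used in the dunnart face was not tested.

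After MYL1 and RPL19, the highest RNA without a peak within 1 kb was that of CSTA, COL3A1, POSTN and TUBB. CSTA, a protease inhibitor of the cornified envelope, was at 573, 1419 and 1047 TPM with the nearest peak 7.80 and 7.67 kb away. COL3A1, a fibrillar collagen, was at 699, 1328 and 625 TPM, its nearest peaks were 41.1 and 37.1 kb from the TSS, and the 63.6 kb gene itself held 7.93 and 14.3 fold-kb. POSTN, a matrix protein of periosteum and ligament, was at 575, 1010 and 683 TPM with the nearest peaks 15.1 and 21.3 kb away and none over the gene in either replicate. TUBB, a widely used beta-tubulin, was at 746, 817 and 648 TPM and had 329 and 222 fold-kb at 1 to 10 kb, from 3.43 and 3.52 kb outward. The 4 genes therefore differed in whether H3K27ac lay close by.

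The largest signal at 1 to 10 kb among expressed genes without a 1 kb peak belonged to EEF1D, EMILIN1, MAP2K2, ARHGAP35 and SZRD1. EEF1D, a subunit of the elongation factor complex, had 391 and 307 fold-kb at 308, 235 and 250 TPM, and its nearest peaks were 2.34 and 2.28 kb away. EMILIN1, a glycoprotein of elastic fibres, had 334 and 284 fold-kb at 98.9, 146 and 56.2 TPM, starting at 1.18 and 1.11 kb. MAP2K2, a kinase of the ERK cascade, had 333 and 273 fold-kb at 80.1, 110 and 97.5 TPM, starting at 1.35 and 1.48 kb. In EMILIN1, MAP2K2 and SZRD1 the nearest peaks began between 1.11 and 1.48 kb, just outside the 1 kb limit. ARHGAP35, a GTPase-activating protein, was lowest in RNA at 5.79, 11.7 and 8.24 TPM with 315 and 286 fold-kb.

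The reverse, strong signal at the TSS of a gene not called expressed, was counted in the strongest quartile only. Of the 5423 genes in the strongest quartile within 1 kb 90.4% were expressed, and 520 were not, of which 172 have a symbol. Under 1 TPM in all 3 libraries were 386 genes of this quartile. Among all 15561 genes with a peak within 1 kb in both replicates, of whatever strength, 70.8% were expressed. After TRNAI-UAU-2, the strongest signals under 1 TPM in all libraries were those of ERF, RSPH6A, MIR24-2, PRSS16 and TCTEX1D4. ERF, an ETS repressor of the ERK pathway, had 2509 and 2071 fold-kb at 0, 0 and 0.432 TPM in a model with 284 bp of exon. RSPH6A, of the radial spokes of cilia, had 1530 and 1070 fold-kb at 0.526, 0.174 and 0.0533 TPM. PRSS16, a serine protease of the thymus, had 0 counts, and its replicates differed: a peak of 29.5 kb at 54.4-fold gave 1607 fold-kb in replicate 1, and a peak of 7.42 kb at 6.46-fold gave 47.9 in replicate 2. MIR24-2 encodes a microRNA, whose mature form an mRNA library does not measure. The models of TRNAI-UAU-2, ERF and MIR24-2 hold 74, 284 and 150 bp of exon, against 2305 bp for RSPH6A, 1341 bp for PRSS16 and 769 bp for TCTEX1D4.

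In neither replicate did 25 genes have a peak within 100 kb, and 0 of them were expressed. For 12 of them no peak lay anywhere on the scaffold, and no gene or peak there reached 100 kb, so the window ran past the annotated scaffold instead of being empty. Only 4 of the 25 have a symbol, namely DYNLT3, PCSK5, MGAT4C and MDM2, of which all but MGAT4C are on such scaffolds. DYNLT3, a dynein light chain, was at 0.265, 0.402 and 0 TPM, and MDM2, the ubiquitin ligase of p53, had 0 counts in a model of 50 bp of exon.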

How the data were processed

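For ChIP, the authors used cutadapt (1.9.1) for trimming, Bowtie2 (2.3.5.1) for alignment, Picard (2.23.1) for duplicates and MACS2 (2.1.1) for peak calling, each replicate against its own input. The deposited peak lists give fold enrichment over input, a ratio, and −log10 q-values. RNA counts per gene were made by the authors with HISAT2 (2.21) and featureCounts of Subread (2.0.1), counting reversely stranded pairs over gene models lifted from the Tasmanian devil, and were deposited unscaled with summed exon length.

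Peaks with q under 0.05 were kept. TPM was computed over 21692 genes with Python (3.11.15), numpy (2.4.6), pandas (2.3.3) and scipy (1.17.1). Another 11 genes, written over 2 lines, kept their TSS, but their counts were not used. No column of the count table was left without a group. Gene names are those of the table, where 14169 genes have a symbol and 7534 a LOC identifier. TPM is over counts of 16096971 to 17419099 per library, and spread between libraries is given by the values themselves. The peak lists give no ChIP depth, and the average depths of the study's text were not used here. H3K4me3 and input libraries were not used.

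Spearman and partial rank correlations are descriptions across genes. Their spread is given over 6 pairs of replicate and library. The pairs share samples and genes, so this shows the effect of exchanging a replicate or library and is not an error of the correlation. Band assignment and TPM were tested on simulated data, where 3000 of 3000 planted peaks fell in the right band and the TPM change was within 0.2 log2 for 191 of 200 genes. The edgeR package (4.0.16) in R (4.3.3) gave only the TMM factors of an alternative scaling.

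The members, the 23 gene lists (493 of 583 symbols measured) and the alternatives were chosen with earlier results of these data known. Named are genes with a symbol, mitochondrial genome aside: the 5 of largest signal per band, the 8 of highest TPM, the 6 of highest TPM without a peak within 1 kb and within 100 kb (only 4 exist for the latter), the 6 of largest 1 kb signal under 1 TPM, the 5 expressed genes without a 1 kb peak of largest signal at 1 to 10 kb, and the 3 of highest TPM of each list. Not every gene so named is reported here. TTN and, in a plot caption, SETD1B were chosen after their values were seen. No sequence is printed, since no genome of this assembly was used here.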

Additional observations from a re-analysis of the deposited data

How the results depend on the processing

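The order of the bands held with little exception: rho within 1 kb exceeded that at 10 to 100 kb in 22 of 22 alternative settings, and the latter exceeded that at 1 to 10 kb in 21 of 22, the exception being peaks given only to the nearest TSS. A value is said to have moved when it differed by at least the SD over the 6 pairs. None of the 5 correlations moved with stricter q limits of 0.01 and 0.001, TMM scaling or all deposited peaks. The same held for peaks shared by both replicates, long scaffolds only and each left-out replicate or library. Values are given in the order within 1 kb, 1 to 10 kb, 10 to 100 kb, 1 to 10 kb given 1 kb, and 10 to 100 kb given both nearer bands, and only those that moved are listed. Number of peaks gave 0.410, 0.168, 0.252 and, for the last, 0.109. Summed length gave 0.563 within 1 kb and 0.291 at 10 to 100 kb, and turned both conditional values negative (-0.0435 and -0.0022). The largest fold enrichment gave 0.665, 0.295 at 10 to 100 kb, 0.163 and 0.112. Without peaks at another TSS the values were 0.474, 0.291 at 10 to 100 kb, 0.130 and 0.156. Nearest TSS only gave 0.596, 0.171, 0.110 and a reversed last value of -0.0274. Distance from the summit gave 0.588, and 0.234 and 0.0868 for the conditional values. Genes with a symbol gave 0.582, 0.165, 0.256 and 0.0461 for the last. Expressed genes gave 0.383, 0.156, 0.235, 0.103 and 0.0761. Genes with no other TSS within 10 kb gave 0.688, 0.213 and, for the last, 0.0489. Chosen after seeing the data were leaving out peaks over 10 kb, with 0.591 and conditional values of 0.120 and 0.141, and genes with at least 500 bp of exon, with 0.0381 for the last. The causes were not tested. The conditional values therefore span -0.0435 to 0.234 and -0.0274 to 0.156 and have no settled size. Pearson's r within 1 kb was 0.651 and 0.524 with pseudocounts of 0.1 and 10 TPM. No paired analysis was possible because the RNA columns carry no replicate number, the ChIP and RNA pools are different young, and no test was run. Depth limits weak distal peaks, and the lists give no ChIP depth per sample.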
